A study of Danio rerio with 8 samples.

Results

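The glutathione peroxidase genes *gpx1a*, *gpx1b*, *gpx3*, *gpx4a* and *gpx4b* and the deiodinase genes *dio1*, *dio2* and *dio3b* were followed in whole zebrafish larvae mutant for *seph*, which encodes selenoprotein H of the nucleus (current symbol *selenoh*), and in wild type larvae. They were taken by gene symbol, each led to 1 Ensembl ID, and they are 8 of the 32434 genes counted. The ID taken for *gpx4b* (ENSDARG00000076836) is named gpx4 in the symbol table, where *gpx4a* has an ID of its own. Each genotype was represented by 4 libraries of polyadenylated RNA, all from larvae at 5 days post fertilization, and libraries are called here by genotype and replicate number (mutant 1, wild type 1). The sample labels name the mutants only by the gene, and the headers of the counts name them SepHKO, that is, as a knockout. The labels give no allele or zygosity. They do not say whether the samples of a genotype came from separate clutches, so the spread between them may be technical.

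Glutathione peroxidases use glutathione to reduce hydrogen peroxide and lipid hydroperoxides, and deiodinases remove iodine from thyroid hormones, which either activates or inactivates them. Many members of both families are selenoproteins: they hold selenocysteine at the active site, inserted at a UGA codon with the help of a stem-loop in the untranslated 3' end of the messenger RNA. Their synthesis therefore depends on selenium supply, and in mammals some of their messenger RNAs are known to respond to it. In zebrafish several of these genes are present as paralogs, marked by the final letters a and b.

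Libraries held 51246749 to 56409917 counts. The mutated gene, *selenoh* (ENSDARG00000093022), had 737 to 1225 counts in wild type and 1, 20, 0 and 0 in mutant 1 to 4. No library went against its label. An exact permutation test on the group means gave the lowest p possible with 4 and 4 libraries (two-sided p = 0.0286). That p follows from the complete separation of the groups. Mutant 3 and wild type 3 stood apart on the second principal component, which held 20.5% of the variance, at -59.6 and -71.0 against 15.7 to 27.4 for the other 6. Results are therefore also given without both of them. Because whole larvae were used, fewer cells of a type and less RNA per cell cannot be told apart.

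Among the 8 genes, *dio1* alone passed the test with all libraries, and it fell. *gpx1b* and *dio3b* had mean levels about 2-fold higher in the mutant and were called only with mutant 3 left out, the mutant library nearest to the wild type mean for both, or under some of the other methods. *gpx1a*, *gpx3*, *gpx4a* and *dio2* passed in none of the 19 alternatives tried, and *gpx4b* passed where wild type 3 was left out and with limma-voom. All 8 genes passed the filter on low counts. Genes are called changed where the adjusted p is under 0.05, and every adjusted p below comes from edgeR's quasi-likelihood test with Benjamini-Hochberg adjustment over all genes, 27050 with all libraries, unless another tool is named. Of the 8 genes 0 rose and 1 fell, while 17.1% of all tested genes were called, 8.65% higher and 8.45% lower. The 1 call is 12.5% of the 8, near that background. Without both replicate 3 libraries 3 rose (*gpx1b*, *gpx4b* and *dio3b*) and *dio1* fell, where 30.0% of all tested genes were called, 15.5% higher and 14.6% lower.

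**Figure D1:**
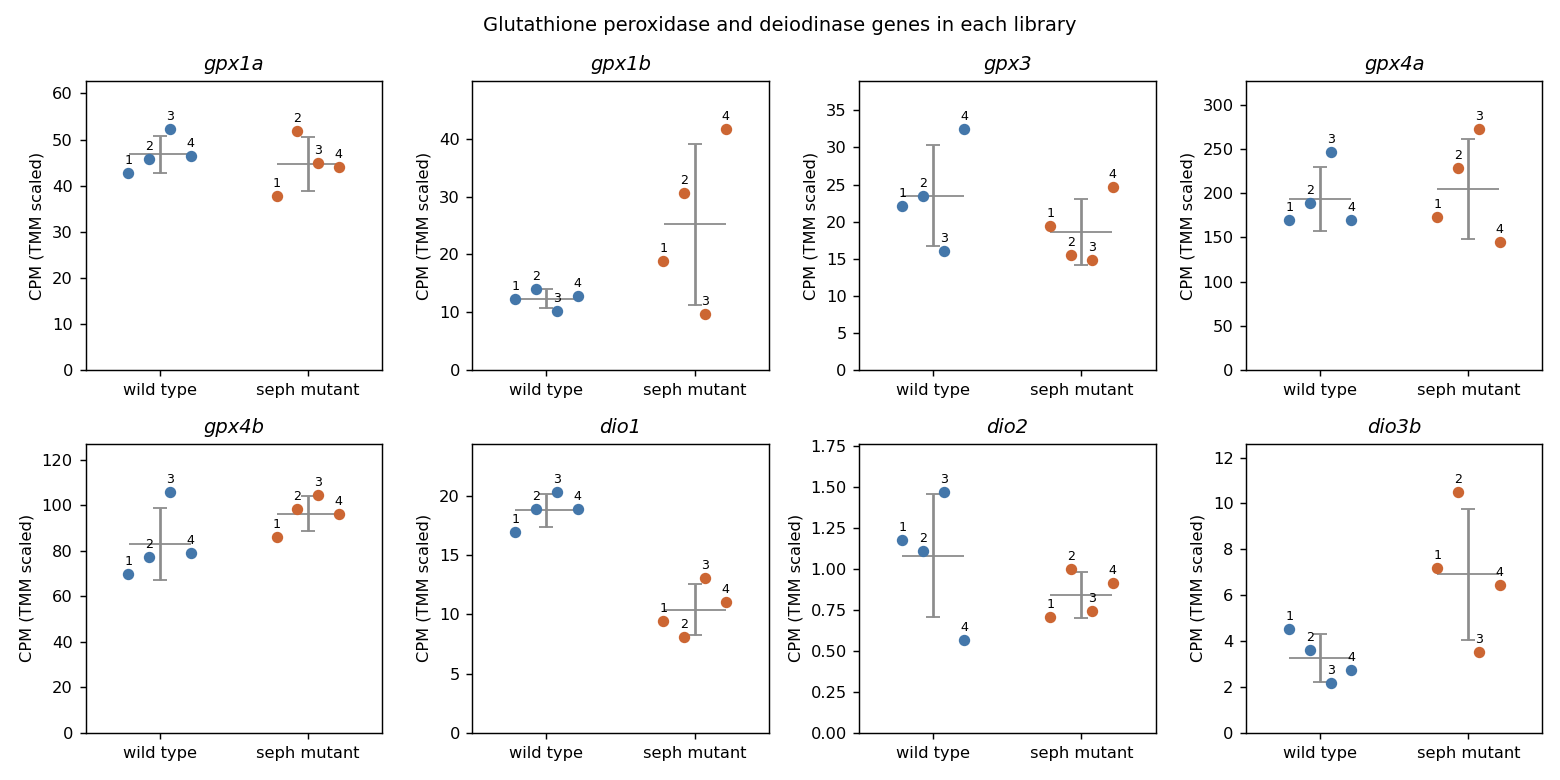
Level of each of the 8 genes in TMM-scaled CPM (linear axes from 0) in the 4 wild type (blue) and 4 seph mutant (orange) libraries. Points are libraries with their replicate number, and grey bars are group means with SD (n = 4). The *dio1* groups do not overlap, from 8.06 to 13.1 CPM in the mutant and 17.0 to 20.3 CPM in wild type, and those of the other 7 genes do.

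*gpx1a* (ENSDARG00000018146) and *gpx1b* (ENSDARG00000006207) are the zebrafish counterparts of the cytosolic glutathione peroxidase that removes hydrogen peroxide. Levels are in CPM, counts scaled to a common library size by TMM and not by gene length, so they compare libraries and not genes. Group means carry the SD of 4 libraries. *gpx1a* stood at 42.8, 45.7, 52.2 and 46.5 CPM in wild type 1 to 4 and at 37.7, 51.9, 44.9 and 44.1 CPM in mutant 1 to 4. The groups overlapped, with mutant 1 the lowest of all libraries. The mean was 46.8 ± 3.95 CPM in wild type and 44.7 ± 5.82 in the mutant. The log2 fold change of -0.07 ± 0.11 (SE) had a 95% interval of -0.32 to 0.19 (adjusted p = 0.728).

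*gpx1b* was uneven among the mutants. It stood at 12.4, 14.1, 10.2 and 12.8 CPM in wild type 1 to 4 and at 18.9, 30.5, 9.78 and 41.6 CPM in mutant 1 to 4. Mutant 1, 2 and 4 lay above every wild type library, and mutant 3 lay below every one. The mean was 12.4 ± 1.59 CPM in wild type and 25.2 ± 13.9 in the mutant. The log2 fold change of 1.03 ± 0.37 (SE, 95% interval 0.20 to 1.85) did not pass over all genes (adjusted p = 0.0879). Without mutant 3 the gene rose by 1.29 (adjusted p = 0.00843, with 9.04% of all tested genes called higher), and without both replicate 3 libraries by 1.21 (adjusted p = 0.00984). Without mutant 4 the value was 0.67 (adjusted p = 0.212), and over the 19 alternatives the adjusted p ran from 0.00843 to 0.212. Mutant 3 and wild type 3 differed by -0.06 on the log2 scale, and the means of the other 6 libraries by 1.14.

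The counts of the *gpx1* paralogs divided differently from library to library. *gpx1a* took 77.6%, 76.5%, 83.6% and 78.4% of the counts of the pair in wild type 1 to 4, and 66.7%, 63.0%, 82.1% and 51.5% in mutant 1 to 4. Replicate 3 had the highest share in both genotypes, and the other 3 mutant libraries lay below all wild type libraries. The widest exact binomial 95% interval, 65.0% to 68.3% in mutant 1, covers counting error only. The mean share was 79.0% ± 3.17 in wild type and 65.8% ± 12.7 in the mutant. The sources do not state how reads matching both paralogs were counted, and the division is uncertain to that extent.

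**Figure D2:**
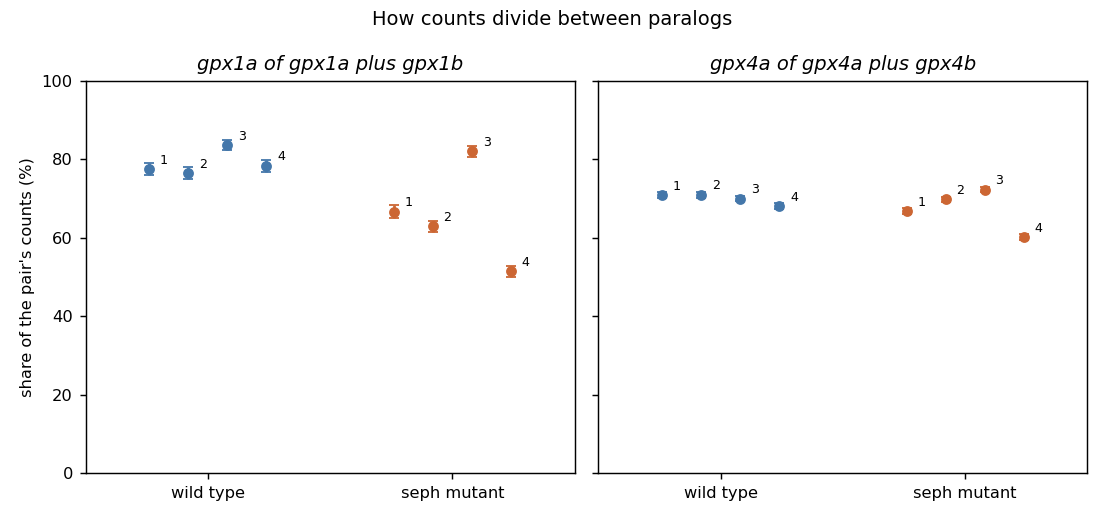
Share of the counts of a paralog pair that fell to *gpx1a* (left) and *gpx4a* (right), in percent, for each library with its replicate number and exact binomial 95% interval (counting error only). Wild type libraries are blue and seph mutant libraries orange. The *gpx1a* share ran from 51.5% to 82.1% in the mutant and from 76.5% to 83.6% in wild type, and the *gpx4a* share from 60.1% to 72.2% and from 68.1% to 71.0%.

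*gpx3* (ENSDARG00000043342) encodes the counterpart of the secreted glutathione peroxidase of mammalian plasma. It stood at 22.1, 23.4, 16.0 and 32.5 CPM in wild type 1 to 4 and at 19.4, 15.5, 14.9 and 24.6 CPM in mutant 1 to 4. Mutant 2 and 3 lay below every wild type library, and the other mutant libraries lay within the wild type range. The mean was 23.5 ± 6.78 CPM in wild type and 18.6 ± 4.49 in the mutant. The log2 fold change was -0.34 ± 0.23 (SE, 95% interval -0.85 to 0.17, adjusted p = 0.348). Replicate 4 was the highest library of this gene in both genotypes and replicate 3 the lowest.

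*gpx4a* (ENSDARG00000068478) and *gpx4b* are counterparts of the phospholipid hydroperoxide peroxidase, which reduces oxidised lipids within membranes and guards mammalian cells against ferroptosis, an iron-dependent death by lipid peroxidation. *gpx4a* stood at 169.7, 189, 246.5 and 169 CPM in wild type 1 to 4 and at 173, 228, 272 and 145 CPM in mutant 1 to 4. The groups overlapped, and replicate 3 was the highest library in both. The mean was 193.5 ± 36.5 CPM in wild type and 204.6 ± 56.7 in the mutant, and the log2 fold change was 0.08 ± 0.21 (SE, 95% interval -0.39 to 0.55, adjusted p = 0.828).

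*gpx4b* stood at 69.5, 77.0, 105.8 and 79.1 CPM in wild type 1 to 4 and at 86.0, 98.3, 104.6 and 96.1 CPM in mutant 1 to 4. Wild type 3 was the highest of the 8 libraries, and the other 3 wild type libraries lay below all the mutant ones. The mean was 82.9 ± 15.8 CPM in wild type and 96.2 ± 7.72 in the mutant. The log2 fold change of 0.22 ± 0.14 (SE, 95% interval -0.09 to 0.53) did not pass (adjusted p = 0.321). Without wild type 3 the gene rose by 0.36 (adjusted p = 0.0306, with 13.4% of all tested genes called higher) and without both replicate 3 libraries by 0.31 (adjusted p = 0.0340). Over the 19 alternatives the adjusted p ran from 0.0287 (limma-voom) to 0.608 (edgeR without wild type 1). *gpx4a* took 70.9%, 71.0%, 70.0% and 68.1% of the counts of this pair in wild type 1 to 4 and 66.8%, 69.9%, 72.2% and 60.1% in mutant 1 to 4. The shares overlapped, with mutant 1 and 4 below all wild type libraries.

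*dio1* (ENSDARG00000042112) encodes the type 1 deiodinase, which in mammals acts mainly in liver, kidney and thyroid and removes iodine from either ring of thyroid hormones. It stood at 17.0, 18.9, 20.3 and 18.9 CPM in wild type 1 to 4 and at 9.41, 8.06, 13.1 and 11.1 CPM in mutant 1 to 4. All mutant libraries lay below all wild type ones. Groups failed to overlap for 22.1% of all tested genes, 11.1% with the mutant lower and 11.0% with it higher. The mean was 18.8 ± 1.39 CPM in wild type and 10.4 ± 2.17 in the mutant, 1.80-fold lower. The log2 fold change was -0.85 ± 0.15 (SE, 95% interval -1.19 to -0.51, adjusted p = 0.00568), and -0.94 without both replicate 3 libraries (adjusted p = 0.00176). The gene kept its call under all 19 alternatives, where 3.38% to 17.6% of all tested genes were called lower. Its adjusted p ran from 7e-06 (DESeq2 Wald test) to 0.0223 (edgeR without mutant 1), and the lowest from edgeR was the 0.00176 above.

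*dio2* (ENSDARG00000094857) encodes the type 2 deiodinase, which converts thyroxine to the active hormone triiodothyronine. It was the least counted of the 8 genes, with 62, 58, 81 and 29 counts in wild type 1 to 4 and 39, 56, 42 and 50 in mutant 1 to 4. In CPM these were 1.17, 1.11, 1.47 and 0.568 in wild type and 0.705, 1.001, 0.744 and 0.915 in the mutant. The mutant libraries all lay within the wild type range, whose lowest value came from wild type 4, where the exact Poisson 95% interval of the 29 counts ran from 19.4 to 41.6 (counting error only). The log2 fold change was -0.36 ± 0.30 (SE, 95% interval -1.04 to 0.32), and no difference was detectable (adjusted p = 0.454). The interval of wild type 3, 64.3 to 100.7 counts, did not meet that of wild type 4, so the wild type libraries differed by more than counting error.

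*dio3b* (ENSDARG00000095767) encodes a type 3 deiodinase, the enzyme that inactivates thyroxine and triiodothyronine. Its paralog *dio3a* was not analysed here. *dio3b* stood at 4.53, 3.63, 2.16 and 2.72 CPM in wild type 1 to 4 and at 7.17, 10.5, 3.53 and 6.44 CPM in mutant 1 to 4. Mutant 1, 2 and 4 lay above every wild type library, and mutant 3 lay between wild type 4 and wild type 2. The mean was 3.26 ± 1.04 CPM in wild type and 6.91 ± 2.86 in the mutant, 2.12-fold higher, and the log2 fold change was 1.08 ± 0.33 (SE, 95% interval 0.33 to 1.83). It missed the threshold (adjusted p = 0.0537). It passed without mutant 3 (1.30, adjusted p = 0.0139) and without both replicate 3 libraries (1.15, adjusted p = 0.0105), and over the 19 alternatives the adjusted p ran from 0.00817 to 0.142. Mutant 3 was 0.70 above wild type 3 on the log2 scale.

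Both *gpx1b* and *dio3b* also passed with other methods on all 8 libraries. The DESeq2 Wald test gave 1.01 and 1.07 (adjusted p = 0.0253 and 0.0110). It called 9.50% higher of 32208 genes, all those with any count and not only those past edgeR's filter on low counts. DESeq2 was run with its default filtering, which can leave genes of low count without an adjusted p. Such genes stay in the 32208. In the simulation described below the DESeq2 Wald test made 53 false calls, edgeR 8 and limma-voom 5. Its setting differed from these data, so these numbers do not tell whether either call here is false. Limma-voom with quality weights gave 0.94 and 0.99 (adjusted p = 0.0315 and 0.0160) and also called *gpx4b* (0.32, adjusted p = 0.0287), where 18.6% were. *dio3b* passed besides in edgeR with library size only (1.17, adjusted p = 0.0370), where 2713 of 27050 genes were called higher.

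**Figure D3:**
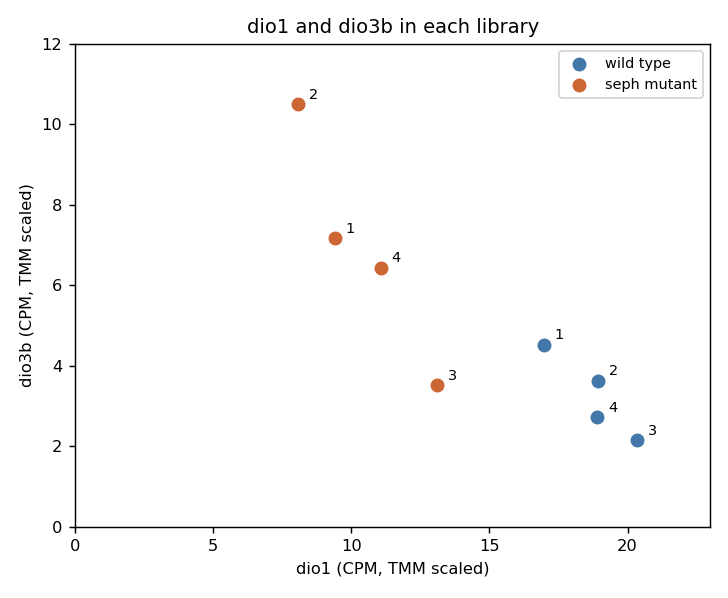
Level of *dio1* (x axis) and *dio3b* (y axis) in CPM (TMM scaled) in each wild type (blue) and seph mutant (orange) library, with replicate numbers. Mutant 2 had the lowest *dio1* value (8.06 CPM) and the highest *dio3b* value (10.5 CPM), and wild type 3 had the highest *dio1* value (20.3 CPM) and the lowest *dio3b* value (2.16 CPM).

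**Figure D4:**
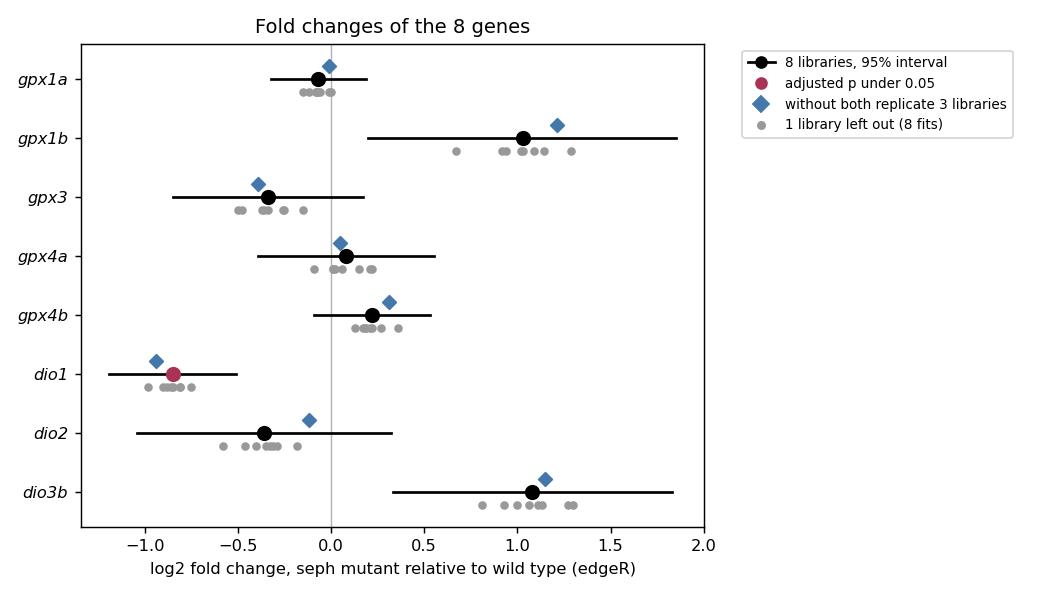
Log2 fold change of each gene in the seph mutant relative to wild type (edgeR). Large points with bars are the values of all 8 libraries with 95% intervals, red where the adjusted p was under 0.05. Small grey points are the 8 fits with 1 library left out and diamonds the fit without both replicate 3 libraries. *dio1* is called at -0.85, while *gpx1b* at 1.03 and *dio3b* at 1.08 have intervals above 0 and are not called over all genes.

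The position of the replicate 3 libraries was examined for the 8 genes after their values were seen. In both genotypes replicate 3 was the highest of the 4 libraries for *gpx4a*, *gpx4b* and *dio1* and the lowest for *gpx1b*, *gpx3* and *dio3b*, so that 6 of the 8 were at the same extreme in both and *gpx1a* and *dio2* were not. Of all 27050 tested genes 39.2% were, 20.6% at the highest and 18.7% at the lowest. For *gpx1a* and *dio2* replicate 3 was the highest library in wild type but not in the mutant.

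The genes most like each of the 8 were sought among 12217 other named genes whose mean level reached 5 CPM. Likeness was the root mean square difference between log2 CPM profiles over the 8 libraries, each centred on its own mean, and it is given here as a description. A gene chosen this way shares most of the genotype difference of the gene it is near. The fold changes and calls given for these genes therefore largely follow from the choice. Nearest to *dio1* were the Polycomb gene *cbx2* (0.103), the neuronal transcription factor gene *neurod6* (0.109) and the neural transcription factor gene *zic1* (0.124). These 3 fell by 0.92 ± 0.11, 0.83 ± 0.13 and 0.82 ± 0.10 on the log2 scale (SE, edgeR). Nearest to *gpx1b* were the cathepsin gene *ctss2.2* (0.219), *cxl34b.11* (0.276) and the claudin gene *cldna* (0.289), and nearest to *dio3b* were *pkhd1l1* (0.221), the actin gene *actc1* (0.224) and *crp3* (0.225). Of these 6, *cldna* rose by 1.02 ± 0.24 and *pkhd1l1* by 1.34 ± 0.40 (SE, edgeR), and the others were not called. The smallest differences of all were those of *gpx4b* with *gadd45gip1* (0.0325), the RNA helicase gene *ddx1* (0.0382) and *gskip* (0.0455). Such differences can be small where a gene varies little, so they do not rank the 8 genes by likeness. The SD of the log2 profile was 0.152 for *gpx1a*, 0.224 for *gpx4b* and 0.510 for *dio1*. *gpx4a* lay nearest to the lactate transporter gene *slc16a3* (0.111), the tubulin gene *tuba1b* (0.118) and the ubiquinone synthesis gene *coq7* (0.125). The nearest genes were *pyurf*, *st3gal7* and *aldh16a1* for *gpx1a* (0.0566 to 0.0596), *pik3cg*, *tafazzin* and *lrrc41* for *gpx3* (0.107 to 0.132), and *nt5c2l1*, *sdccag8* and *clstn2* for *dio2* (0.211 to 0.255). The genes named for *gpx1a*, *gpx3*, *gpx4a*, *gpx4b* and *dio2* were not called.

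Other selenium and glutathione genes went both ways around the 8. The median log2 fold change of all tested genes was 0.01. Calls over all tested genes also moved when 1 library was left out, and the list counts of such fits stand beside that. Without mutant 1, wild type 1 or wild type 2, 5.35%, 4.72% and 4.61% were called higher and 4.85%, 4.73% and 4.51% lower. Without wild type 3 the shares were 13.4% and 12.3%. Of 21 other selenoprotein genes 4 rose and 1, *selenoh* itself, fell (median 0.16). The endoplasmic reticulum protein genes *selenon* and *selenom* rose by 1.39 ± 0.17 and 0.93 ± 0.22, and *selenow2b* rose by 0.61 ± 0.18 (log2, SE, edgeR). With any 1 library left out *selenon* kept its call, while *selenom* lost it in 5 of the 8 fits and *selenow2b* in 7, all but that without mutant 3 (adjusted p up to 0.0662 and 0.111). Only 1 of the 4 rises passed when mutant 1, mutant 2, wild type 1, wild type 2 or wild type 4 was left out and 2 when mutant 4 was, and 2 genes fell when mutant 3 was. Without both replicate 3 libraries 6 rose and 3 fell.

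Of 10 genes of selenocysteine incorporation and selenium supply 3 fell and 0 rose (median -0.13). They were *lrp2b*, a megalin receptor gene (-1.32 ± 0.27), the ribosomal protein gene *rpl30*, whose mammalian product binds the selenocysteine insertion element (-0.42 ± 0.12), and *trnau1apb*, which encodes a partner of the selenocysteine tRNA (-0.35 ± 0.10). Leaving out mutant 1, mutant 2, wild type 1, wild type 2 or wild type 4 left 1 of these calls, that of *lrp2b*, and 1 gene rose when wild type 3 was left out. Without both replicate 3 libraries 5 fell and 1 rose.

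Of 16 genes of glutathione synthesis and recycling 1 rose, the glutaredoxin gene *glrx* (0.51 ± 0.12), and 0 fell (median 0.18). Glutathione reductase, *gsr*, which regenerates the reduced glutathione that the peroxidases use, was not called (0.33 ± 0.11, 95% interval 0.09 to 0.56, adjusted p = 0.0650). Leaving out mutant 1, mutant 2, wild type 1 or wild type 2 left 0 called higher, and leaving out wild type 3, alone or with mutant 3, gave 5 higher and 1 lower. *glrx* itself lost its call in 5 of the 8 fits, also without wild type 4 (adjusted p up to 0.0808).

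Relatives of the glutathione peroxidases were among 18 genes that remove peroxide or superoxide, of which 2 rose and 2 fell (median 0.09). *gpx9* (ENSDARG00000003077), with the older name gpx3b in RefSeq, had 9.34, 8.49, 7.04 and 7.76 CPM in wild type 1 to 4 and 2.51, 2.38, 5.94 and 2.93 CPM in mutant 1 to 4. Its groups did not overlap, and it fell by 1.25 ± 0.29 on the log2 scale (SE, edgeR). The call was lost when mutant 1, wild type 1 or wild type 2 was left out (adjusted p up to 0.0543). *gpx8* of the endoplasmic reticulum, which in mammals has cysteine in place of selenocysteine, rose by 0.55 ± 0.16, and of the 8 fits with 1 library left out it was called in 1, that without wild type 3. Its relative *gpx7* was not called (0.85 ± 0.30, 95% interval 0.17 to 1.54, adjusted p = 0.0861). Of the IDs under the peroxiredoxin symbol *prdx1*, ENSDARG00000025350 fell (-0.57 ± 0.10), and ENSDARG00000058734 had a positive value that was not called (0.91 ± 0.38, adjusted p = 0.137). These IDs may be separate paralogs. The sulfiredoxin gene *srxn1*, whose product repairs overoxidised peroxiredoxins, rose (0.68 ± 0.16), and lost its call with mutant 4, wild type 1 or wild type 2 left out. The number of rises was 1 with mutant 1, mutant 2, mutant 3 or wild type 4 left out, 0 with mutant 4, wild type 1 or wild type 2, and 5 with wild type 3, and the number of falls was 1 with mutant 1, wild type 1 or wild type 2 left out. Without both replicate 3 libraries 5 rose and 3 fell.

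Of 19 genes of lipid peroxidation and ferroptosis, the process that *gpx4* opposes, 4 rose and 1 fell (median 0.11). IDs that share a symbol here may be separate paralogs. Both IDs under the prostaglandin synthase symbol *ptgs2* rose, ENSDARG00000010276 by 1.99 ± 0.26 and ENSDARG00000004539 by 1.18 ± 0.16 on the log2 scale (SE, edgeR). *acsl4* (ENSDARG00000010752), whose product activates polyunsaturated fatty acids for phospholipid synthesis, rose by 0.92 ± 0.18. A further *acsl4* ID, ENSDARG00000004078, was not called (-0.42 ± 0.15, adjusted p = 0.0909). The 3 IDs under the polyamine acetylase symbol *sat1* went different ways: ENSDARG00000035652 fell (-0.60 ± 0.11), ENSDARG00000095908 rose (0.79 ± 0.18, adjusted p = 0.0190) and ENSDARG00000032272 was not called (-0.01 ± 0.13). The rising *sat1* ID lost its call with mutant 2, wild type 1 or wild type 2 left out (adjusted p up to 0.0621). Both *ptgs2* IDs, the rising *acsl4* ID and the falling *sat1* ID kept their calls in all 8 fits that left out 1 library. With wild type 3 left out 7 genes rose, 2 fell with wild type 3 or mutant 3 left out, and 7 rose and 3 fell with neither included.

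Of 10 measured genes of hormone synthesis and its control 0 were called by edgeR (median 0.07), and 1 fell with wild type 3 left out, alone or with mutant 3. Thyroglobulin, *tg*, the hormone precursor of the thyroid follicle, had 63.1, 60.8, 11.01 and 11.7 CPM in wild type 1 to 4 and 93.2, 36.9, 24.2 and 7.56 CPM in mutant 1 to 4. It varied widely within each genotype and the groups overlapped, so that a change of either sign lies within the interval (0.14 ± 0.78, 95% interval -1.61 to 1.90, adjusted p = 0.924). The follicle transcription factor genes *foxe1* (-0.39 ± 0.16, adjusted p = 0.117) and *pax8* (0.21 ± 0.14, adjusted p = 0.352) were not called either.

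Of 15 genes of hormone transport and response 3 fell and 0 rose (median -0.30). Transthyretin, *ttr*, a carrier of thyroid hormone in blood, had 46.0, 49.7, 32.2 and 43.0 CPM in wild type 1 to 4 and 23.6, 25.3, 18.1 and 29.2 CPM in mutant 1 to 4. It fell by 0.83 ± 0.17 on the log2 scale (SE, edgeR) without overlap, and kept its call with any 1 library left out. The thyroid hormone receptor gene *thrb* had 23.6, 22.8, 15.0 and 25.9 CPM in wild type and 12.2, 14.3, 8.77 and 13.0 CPM in the mutant, also without overlap. It fell by 0.85 ± 0.20, and lost its call with mutant 1, wild type 1 or wild type 2 left out (adjusted p up to 0.0549). The coactivator gene *ncoa1* fell by 0.43 ± 0.12, and kept its call with mutant 3 or wild type 3 left out but with none of the other 6. The hormone-responsive gene *klf9* was not called (-0.51 ± 0.75, 95% interval -2.21 to 1.18, adjusted p = 0.688), with 15.0 and 21.5 CPM in mutant 3 and wild type 3 against 70.6 to 213 CPM in the others. The number of falls was 1 with mutant 1, wild type 1 or wild type 2 left out, 6 with mutant 3, 7 with wild type 3 and 8 with both of these. Over all tested genes 4.85%, 4.73% and 4.51% were called lower without mutant 1, wild type 1 or wild type 2. The share was 8.47% without mutant 3, 12.3% without wild type 3 and 14.6% without both.

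**Figure D5:**
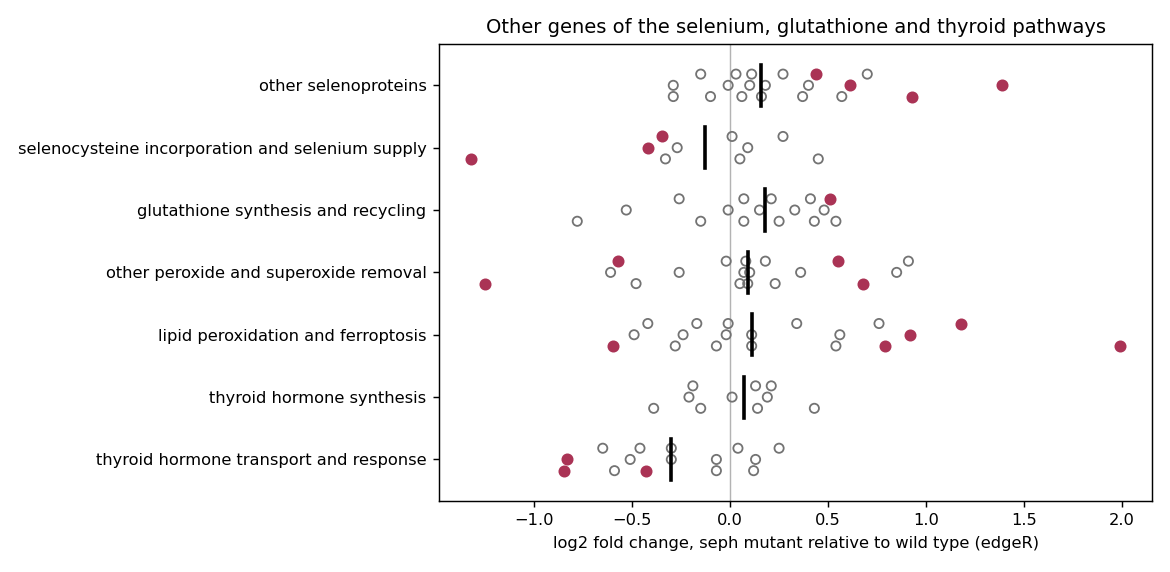
Log2 fold change (edgeR, seph mutant relative to wild type) of the tested genes of 7 lists around the glutathione peroxidases and deiodinases. Filled red points had an adjusted p under 0.05, open points did not, and black bars are list medians, from -0.30 for thyroid hormone transport and response to 0.18 for glutathione synthesis and recycling. *selenoh*, at -7.48, is counted in its median and not drawn.

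Markers of cell types that may hold these transcripts moved to different extents, and none of the markers measured was at 0 counts in all libraries. Of 12 hepatocyte markers 3 rose, the fibrinogen genes *fga*, *fgb* and *fgg*, and 1 fell, *hpda* of tyrosine breakdown, and their summed level was 4230 to 6167 CPM in the mutant against 4315 to 5399 in wild type. Of 8 enterocyte markers 1 rose and 4 fell (2681 to 3689 CPM in the mutant, 3009 to 4100 in wild type), and of 14 pronephros markers 1 rose and 0 fell (555.6 to 685.6 against 481.6 to 592.7 CPM). The sums overlapped between genotypes, but single markers did not all follow them. A large part of the enterocyte sum, larger in the mutant than in wild type, came from the apolipoprotein genes *apoa1a* and *apoa4b.1*. *apoa1a* rose (860.0 CPM on average in wild type, 1578 in the mutant), and *apoa4b.1* was not called (954.9 and 893 CPM). The fatty acid binding protein gene *fabp2* fell by 1.47 ± 0.23 and the chitinase gene *chia.3* by 1.22 ± 0.15 on the log2 scale (SE, edgeR), both without overlap and with larger estimates than *dio1*. The part of any of these cell types in the lower *dio1* was not tested. Hepatocyte falls numbered 2 with mutant 3 or wild type 3 left out. Enterocyte falls numbered 2 with mutant 1, mutant 4, wild type 1, wild type 2 or wild type 4 left out, and rises 0 with mutant 1, mutant 2, wild type 1, wild type 2 or wild type 4, and 2 with wild type 3. Pronephros rises numbered 0 with mutant 1, wild type 1 or wild type 2 left out and 2 with wild type 3, and 1 marker fell with mutant 3 left out.

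Of 13 photoreceptor markers 12 fell and 0 rose, with summed levels of 137 to 834 CPM in the mutant against 2099 to 2945 in wild type. Cone photoreceptors use *thrb* during development, and their part in the lower *thrb* was not tested. Of 9 glia markers 3 rose and 3 fell (589 to 649 against 501.5 to 695 CPM). Of 9 pituitary markers 0 rose and 1 fell (25.8 to 45.8 against 27.7 to 46.0 CPM), 0 fell with mutant 1, wild type 1 or wild type 2 left out, and 2 with mutant 4 or wild type 3. All 9 exocrine pancreas markers fell (47.7 to 110.7 against 6358 to 15980 CPM). Of 7 erythroid markers 3 fell and 0 rose (334 to 579 against 407 to 1011 CPM), or 5 fell with wild type 4 left out. Without both replicate 3 libraries the calls higher and lower were 3 and 3 for hepatocytes, 2 and 5 for enterocytes, 1 and 1 for pronephros, 1 and 1 for pituitary, 5 and 3 for glia, 0 and 13 for photoreceptors, 0 and 9 for exocrine pancreas and 1 and 2 for erythroid cells.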

How the data were processed

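Polyadenylated RNA of 8 larval samples was sequenced, and the deposited table gives raw read counts per Ensembl gene for each of them. STAR 2.3.0e and HTSeq 0.6.0 are named in the submitters' processing notes. Genome build, annotation release, strand setting and how reads matching several genes were treated: not given in the sources used here.

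Genes were filtered with filterByExpr (minimum count 10), scaled by TMM and tested in R 4.3.3 by edgeR 4.0.16 (quasi-likelihood test, genotype the only term, Benjamini-Hochberg adjustment over 27050 genes). SE is the absolute log2 fold change over the square root of F, and 95% intervals use the test's degrees of freedom. Alternatives were other scalings and filters, limma-voom (limma 3.58.1), the DESeq2 1.42.0 Wald test, a replicate block, a threshold of 0.01, removal of the 1634 genes whose counts equal those of another gene (no member is among them) and leaving out libraries. The mean squared difference between samples of a genotype, in units of counting noise, ran from 8.04 to 145.3. It was least between wild type 1 and 2, and the next lowest was 29.6, between mutant 1 and 2. Whether wild type 1 and 2 are independent samples is not stated in the labels. All libraries were kept as separate samples, and the p-values and SDs treat them so.

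Members and lists were chosen with earlier results of these data known. Symbols came from a table naming 20769 of the 32434 IDs and are written in lower case. Of 208 list entries, 139 matched by symbol, 17 by a RefSeq synonym (GRCz12tu), 10 without the final letter, and 42 were not matched. The text names, from each pathway list, up to 4 called genes with the smallest p, or 2 where none was called, and *thrb*, *klf9*, *tg*, *gsr* and *gpx7* in any case. Marker lists fall under the same rule but are given mainly as counts, since other markers carry no result on the 8 genes. In a simulation of this comparison with 27050 genes, edgeR found 1 of 67 genes altered 1.5-fold, 31 of 67 altered 2-fold and 55 of 66 altered 4-fold, and made 8 false calls. The DESeq2 Wald test found 13, 46 and 61 of them with 53 false calls, and limma-voom 1, 30 and 55 with 5. Only these genes were altered, while 17.1% were called in the data, and libraries were drawn without the shared replicate 3 pattern. The shares found and the false calls therefore do not give the sensitivity or the rate of false calls of the real comparison.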

Additional observations from a re-analysis of the deposited data

How the results depend on the processing

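The call of *dio1* held under all 19 alternatives, with log2 fold changes from -0.98 to -0.75, and *gpx3* and *dio2* were called under none of theirs. *gpx1b* passed with the DESeq2 Wald test (1.01), limma-voom (0.94) and without both replicate 3 libraries (1.21), and ran from 0.67 to 1.29 with 1 library left out. *gpx4b* passed with limma-voom (0.32) and without both replicate 3 libraries (0.31), and ran from 0.13 to 0.36 with 1 library left out. *dio3b* passed with library size only (1.17), the DESeq2 Wald test (1.07), limma-voom (0.99) and without both replicate 3 libraries (1.15), and ran from 0.81 to 1.30 with 1 library left out. *gpx1a* changed sign with library size only (0.01) and ran from -0.15 to 0.00 with 1 library left out, where *gpx4a* ran from -0.09 to 0.22, negative without mutant 3. Neither gene was called in any of these fits.

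Over all genes 2339 rose and 2287 fell. The counts were 5039 and 4765 with limma-voom, 4200 and 3956 without both replicate 3 libraries, 955 and 915 at an adjusted p under 0.01, and from 1262 to 3667 higher and 1235 to 3374 lower with 1 library left out. Scaling by library size alone changed them to 2713 and 1647. The causes were not tested. Of 62 called genes in the lists 43 kept their call in all 8 fits that left out 1 library. The 62 pool pathway and marker lists, and all 9 exocrine pancreas markers are among the 43. This share therefore does not describe the pathway lists, for which lost calls are given list by list above.

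The labels do not tie same-numbered samples to each other. Their deviations from the group means correlated across genes by 0.095, 0.0662, 0.46 and 0.237 for replicates 1 to 4. Mutant 1, 3 and 4 each correlated best with the wild type library of their own number, and mutant 2 with wild type 1 (0.124). These values do not settle whether samples were paired. Because the labels state no pairing, genotype was the only term of the main fit and the replicate block an alternative. With the replicate block 3783 genes rose and 3623 fell, and *dio3b* passed (1.04, edgeR adjusted p = 0.00817), while the other 7 genes kept their side of the threshold. Of these, *gpx1b* (0.85, edgeR adjusted p = 0.0535) and *gpx3* (-0.32, edgeR adjusted p = 0.0536) missed it narrowly. *dio2* had 29 to 81 counts per library, and both counting error and the spread between wild type libraries limit its value.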

Other observations

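The ratio of *dio3b* to *dio1* counts within a library does not depend on scaling. It was 0.267, 0.192, 0.106 and 0.144 in wild type 1 to 4 and 0.762, 1.30, 0.269 and 0.582 in mutant 1 to 4. All mutant libraries had a higher ratio than all wild type ones, with mutant 3 only just above wild type 1. This ratio was formed after the values of both genes were seen, and it was not tested.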
